A study of Schizosaccharomyces pombe with 6 samples.

Results

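Fission yeast cells without mug174 (mug174Δ) were compared with wild-type (WT) cells by RNA sequencing. The comparison rests on 4 of the 6 libraries of the series, 2 of mug174Δ and 2 of WT, chosen by strain and matched by replicate number, and on the 5949 of 7001 listed features that had at least 1 RPKM (reads per kilobase of feature, relative to all reads of the library) in 2 or more of the 6 libraries. The other 2 libraries come from red1Δ, a strain without the RNA surveillance factor Red1, and their values are given only beside those of mug174Δ, since both mutants share the same WT libraries. They also enter the filter and the shared estimate of spread behind every test. All strains of Schizosaccharomyces pombe were grown in the rich medium YES, which holds glucose and is supplemented with uracil, adenine and amino acids, at 32 °C without further treatment. The methods describe deletion strains as made by PCR, and the labels give no genotype other than the deletion. The study calls its sequencing experiments independent, but the labels do not say whether cultures or clones were separate. The p-values therefore cover the spread between these libraries, part of which may be technical.

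Coilin is the marker protein of Cajal bodies, nuclear condensates in which small nuclear ribonucleoproteins (snRNPs), the core of the splicing machinery, are assembled and modified. Mug174 is the protein that the study describes as the coilin ortholog of fission yeast. It works close to Tgs1, the enzyme that gives small nuclear RNAs (snRNAs) their trimethylguanosine (TMG) cap. To bring the libraries to one scale, a factor per library was taken as the median over features of its ratio to the average library (median ratio scaling), and all levels below are scaled RPKM, given in the order replicate 1, replicate 2. The libraries held between 16565908 and 18627129 reads, and a single read per kilobase corresponded to 0.0537 to 0.0604 RPKM before scaling. RNA of whole cultures was measured, so fewer cells of a type and less RNA per cell cannot be told apart.

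The deletion was seen at the mug174 locus (SPCC1682.03c, chromosome III from 375965 to 377882 in the coordinates of the deposited table). mug174 had 24.1 and 23.02 in WT and 26.0 and 24.5 in red1Δ, against 1 read in mug174Δ replicate 1 and 0 reads in replicate 2. The gene beside it, cdc31, which encodes the centrin of the spindle pole body, starts at position 378229 on the other strand. cdc31 had 103 and 96.8 in WT, 175 and 173 in mug174Δ, with 91.2 and 85.2 in red1Δ. It was above all WT and red1Δ libraries in both mug174Δ libraries, with a log2 fold change against WT of 0.80 (standard error, SE, 0.08, adjusted p = 0.0045), and whether the cassette or the loss of the protein goes with this was not tested. The next genes outwards, srp68 on that side and mcm3 and qcr9 on the other, had log2 fold changes of 0.19, -0.14 and 0.06 (adjusted p between 0.15 and 0.66). The marker gene ura4 had 0 reads in all 6 libraries, so the strains share its absence. Of the marker genes that were expressed, the log2 fold change of ade6 was 0.11 (adjusted p = 0.40), while leu1 and his2 fell by 0.74 and 0.64 on the log2 scale (adjusted p = 0.011 and 0.027). leu1 did not pass the test when any WT or mug174Δ library was left out, and his2 did not pass it without WT replicate 1, WT replicate 2 or mug174Δ replicate 2, nor without scaling.

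Deletion of mug174 went with 685 raised and 684 lowered transcripts at an adjusted p under 0.05, which is 11.5% of the tested features in each direction. The median log2 fold change of all tested features was 0.01. On RPKM as deposited, without scaling, the median was 0.18, 1382 transcripts rose and 381 fell, so the balance between directions depended on the scaling. The medians of the gene lists given below were between 0.12 and 0.18 higher without it. A log2 fold change above 0.6 was reached by 529 features (8.89%) and one below -0.6 by 487 (8.19%), with no p threshold. With WT replicates 1 and 2 and mug174Δ replicates 1 and 2 left out in turn, 288, 234, 203 and 385 transcripts rose and 267, 214, 228 and 293 fell. Without red1Δ replicate 1 and 2, 1106 and 1063 rose and 1251 and 1219 fell.

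Protein-coding genes were split into 5 equal classes by mean expression. In the class of lowest expression 137 of 944 tested genes rose and 78 fell. In the class of highest expression, with ribosomal protein genes left out, 55 of 819 rose and 162 fell, and the median log2 fold change was -0.14 against 0.07 in the lowest. Ribosomal protein genes, with 58 of 132 lowered and none raised, are not part of these counts, and only 4 to 18 of them were lowered when a WT or mug174Δ library was left out. The classes of intron number and coding length that follow do include ribosomal protein genes. Intron number showed no such order. The median log2 fold change was -0.03 for the 2484 tested genes without introns and 0.01 for the 82 with 6 or more introns, of which 15 rose and 8 fell. Among 5 classes of coding length the shortest held 107 raised and 150 lowered genes of 943, and the longest 82 and 85 of 946. How many of the 150 are ribosomal protein genes was not counted, so these numbers show no trend with length by themselves. By annotated type, 507 of 4724 protein-coding genes rose and 609 fell, and 142 of 1084 non-coding RNAs rose and 56 fell. Of 48 small nucleolar RNAs 15 rose and 6 fell, and of 26 pseudogenes 11 rose and 4 fell. Raised pseudogenes included SPAC212.05c, SPAC212.09c and SPAC212.10 near the left end of chromosome I. Near the right end of chromosome II they included SPBCPT2R1.05c, SPBCPT2R1.07c and SPBCPT2R1.10, with similar levels in mug174Δ. These features may therefore not be independent.

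**Figure D1:**
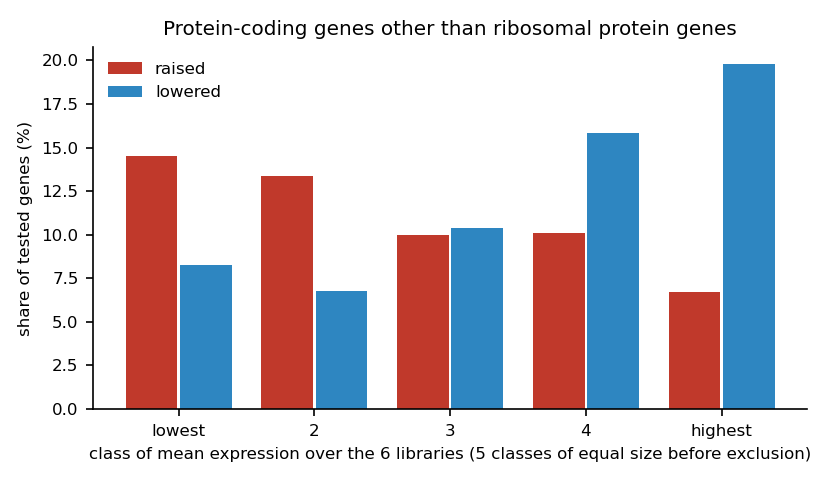
Share of tested protein-coding genes (y axis, percent, ribosomal protein genes left out) that rose or fell in mug174Δ at an adjusted p under 0.05, by class of mean expression over the 6 libraries (x axis). The lowered share is 8.26% in the lowest class and 19.8% in the highest, and the raised share 14.5% and 6.72%.

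Among the raised protein-coding genes were several annotated as enzymes. The glutathione S-transferase gene gst2 had 251 and 272 in WT, 1028 and 1096 in mug174Δ, with 522 and 562 in red1Δ. Its log2 fold change in mug174Δ was 2.02 (SE 0.10, adjusted p = 0.0016), the value in mug174Δ being far above the spread of either strain. SPBC23G7.10c, annotated as an NADH-dependent flavin oxidoreductase, had 29.4 and 32.6 in WT and 100.3 and 107 in mug174Δ, a log2 fold change of 1.72 (SE 0.08, adjusted p = 0.0016). The short coding gene SPAPB1A11.06 rose from 30.4 and 31.7 to 178 and 178. SPAC4H3.08, annotated as a 3-hydroxyacyl-CoA dehydrogenase, rose from 27.5 and 32.8 to 124.7 and 184. cmt2 had the largest log2 fold change of the protein-coding genes. It is a catechol O-methyltransferase gene near the left end of chromosome II and had 7.24 and 10.8 in WT, 61.6 and 65.7 in mug174Δ, with 33.9 and 176 in red1Δ. Its log2 fold change was 2.78 (SE 0.51, adjusted p = 0.018).

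Some raised genes belong to the machinery of transcription and ribosome assembly and were picked after their values were seen. tbp1, which encodes the TATA-binding protein, had 280 and 354 in WT and 970 and 865 in mug174Δ, a log2 fold change of 1.54 (SE 0.14, adjusted p = 0.0044). In red1Δ it had 817 and 855. swc2, a subunit of the complex that places the histone variant H2A.Z, had 64.0 and 63.3 in WT, 123 and 125.5 in mug174Δ, with 73.3 and 73.1 in red1Δ. imp4, a factor of small ribosomal subunit assembly, had 55.1 and 48.9 in WT, 109 and 97.3 in mug174Δ, against 59.2 and 51.5 in red1Δ. All 8 of these genes, from gst2 to imp4, stayed past the threshold whichever WT or mug174Δ library was left out.

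**Figure D2:**
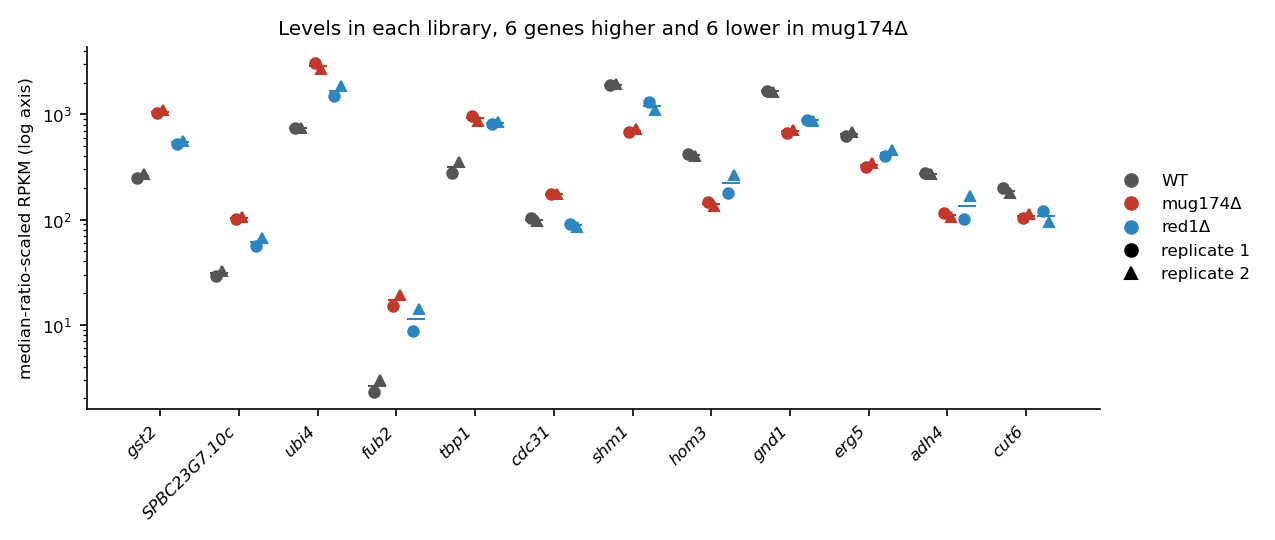
Scaled RPKM (y axis, log scale) of 12 genes in each of the 6 libraries, with circles for replicate 1, triangles for replicate 2 and a bar at the mean of each strain. The first 6 genes are higher and the last 6 lower in both mug174Δ libraries than in both WT libraries, and for cdc31 the red1Δ libraries lie with WT.

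Genes of ubiquitin and the proteasome, the route by which most short-lived proteins are degraded, were among the raised transcripts. ubi4, the gene for polyubiquitin, had 748 and 736 in WT, 3055 and 2706 in mug174Δ, with 1490 and 1850 in red1Δ. Its log2 fold change in mug174Δ was 1.95 (SE 0.18, adjusted p = 0.0042), although 91.0% of the 50-base words of its sequence occur more than 1 time in the genome, the repeated ubiquitin units of ubi4 itself among them, so reads could be shared with other ubiquitin genes. fub2, from the family of the proteasome regulator PI31, rose from 2.28 and 3.00 to 15.2 and 19.2 (log2 fold change 2.496, adjusted p = 0.0020). The antisense RNA SPNCRNA.1695 overlaps fub2 and rose as well (log2 fold change 2.12, adjusted p = 0.0083). As the strand setting of the counting is not known, the values of the overlapping features may not be separate. The fub2 relative fub1 rose from 6.83 and 6.44 to 14.6 and 13.8 (log2 fold change 1.04, adjusted p = 0.0062). Of 27 tested proteasome genes 5 rose (18.5%, beside 11.5% over all features) and none fell. The median log2 fold change was 0.13, and 0.31 with 26 of 27 values positive without scaling. The 5 were pup1, pre4, pre1, pup2 and pup3, all subunits of the catalytic core particle, with log2 fold changes from 0.40 for pup3 to 0.68 for pup1, which had 279 and 264 in WT and 450 and 419 in mug174Δ. Only 0 to 1 of the 27 were raised when a WT or mug174Δ library was left out.

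Autophagy, the degradation of cell contents in the vacuole, has genes named atg in yeasts. Of 27 tested atg and related genes 8 rose and none fell, against 11.5% raised among all features, and the median log2 fold change was 0.27. atg3, for the enzyme that joins Atg8 to lipid, rose from 38.2 and 38.5 to 54.8 and 57.2, and had 62.9 and 67.4 in red1Δ. atg6, for a subunit of the autophagy lipid kinase, rose from 22.3 and 21.8 to 35.6 and 31.3, and the vacuolar lipase gene atg15 from 68.8 and 79.6 to 102 and 109. The aspartyl aminopeptidase gene aap1 rose from 76.0 and 78.9 to 113 and 133, while red1Δ had 81.0 and 83.1. These values are of RNA only. The study reports more unspliced atg5 and atg7 RNA and lower Atg5 and Atg7 protein in mug174Δ. Here atg5 and atg7 had log2 fold changes of -0.26 and 0.36 and did not pass the test (adjusted p = 0.063 and 0.092). Between 0 and 5 of the 27 were raised when a WT or mug174Δ library was left out. Of the 12 genes given from ubi4 to aap1, 4, 4, 4 and 8 were still past the threshold with WT replicates 1 and 2 and mug174Δ replicates 1 and 2 left out in turn.

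Glutathione and thioredoxin systems detoxify peroxides and repair oxidised thiols. Of 23 tested genes of this list 5 rose and 4 fell, beside 11.5% each way over all features. Besides gst2, the raised members were gst3, which went from 162 and 170 to 237 and 226, the copper-zinc superoxide dismutase gene sod1, from 593 and 605 to 946 and 879, the peroxiredoxin gene tpx1, from 1573 and 1654 to 2630 and 2549, and the glutaredoxin gene grx1, from 361 and 356 to 477 and 458. The thioredoxin reductase gene trr1 went the other way, from 256 and 256 to 169 and 163 (log2 fold change -0.62, SE 0.09, adjusted p = 0.012). The monothiol glutaredoxin gene grx4 fell from 391 and 370 to 276 and 210, and grx3 from 113 and 113 to 83.2 and 87.9, and neither passed the test without scaling between libraries. Of the raised genes outside the list, 3 annotated as reductases or oxidoreductases were picked. SPAC19G12.09, annotated as an aldo-keto reductase of indole-3-acetaldehyde, rose from 118 and 127 to 276 and 255, SPBC215.11c, another aldo-keto reductase, from 56.1 and 81.9 to 137 and 152, and SPAPB24D3.08c, an NADP-dependent oxidoreductase, from 157 and 188 to 337 and 363. Of these 10 called genes, gst2 aside, 4, 3, 4 and 5 stayed past the threshold with WT replicates 1 and 2 and mug174Δ replicates 1 and 2 left out in turn.

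The core environmental stress genes that the kinase Sty1 and the transcription factor Atf1 control were looked at next. None of 12 tested members passed the test, and their log2 fold changes lay between -0.57 and 0.50 (median -0.12, or 0.06 without scaling). The small heat shock gene hsp9 had 2051 and 1898 in WT, 3378 and 2108 in mug174Δ, with 4196 and 5309 in red1Δ. Of 16 tested chaperone genes 2 fell (12.5%, beside 11.5% over all features) and none rose. The median log2 fold change was -0.32 with 14 of 16 values negative, and -0.14 with 11 of 16 negative without scaling. The lowered members were aha1, a co-chaperone of Hsp90, from 317 and 251 to 185 and 153, and bip1, the Hsp70 of the endoplasmic reticulum, from 956 and 831 to 533 and 505. egd2, a subunit of the complex that binds nascent polypeptides at the ribosome, was picked after its values were seen and fell from 1937 and 2121 to 984 and 1015. Of these 3 called genes, 2, 1, 1 and 2 stayed past the threshold with WT replicates 1 and 2 and mug174Δ replicates 1 and 2 left out in turn.

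Of 15 tested genes for zinc, copper and other metals, 1 rose and 2 fell, beside 11.5% each way over all features. The raised one was zym1, the zinc metallothionein gene, with 89.3 and 131 in WT, 362 and 336 in mug174Δ, with 395 and 652 in red1Δ (log2 fold change 1.69, SE 0.20, adjusted p = 0.0069). adh4, an alcohol dehydrogenase gene known in fission yeast to be shut off when zinc is ample, had 275 and 269 in WT, 115 and 106 in mug174Δ, with 100.5 and 167 in red1Δ (log2 fold change -1.30, SE 0.21, adjusted p = 0.013). In the iron list 2 of 11 tested genes rose and 2 fell. The siderophore transporter gene str1 rose from 12.5 and 12.2 to 31.9 and 26.5, and the multicopper oxidase gene fio1, at low level, from 2.79 and 3.10 to 5.89 and 5.13. The siderophore synthesis gene sib2 fell from 89.3 and 101 to 50.2 and 66.9, and pcl1, an iron transporter gene of the vacuole, from 427 and 458 to 301 and 288. Leaving out any WT or mug174Δ library kept 4 of these 6 genes past the threshold.

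In the list of fatty acid and phospholipid genes, many of which supply membranes and storage fat, 10 of 22 tested genes fell (45.5%, beside 11.5% over all features) and 1 rose, and the median log2 fold change was -0.42, or -0.25 without scaling. The committed step of fatty acid synthesis is acetyl-CoA carboxylase, encoded by cut6, which had 198 and 177 in WT, 103 and 113 in mug174Δ, with 120.5 and 93.9 in red1Δ (log2 fold change -0.79, SE 0.13, adjusted p = 0.013). The subunits of the fatty acid synthase that uses its product fell with it. fas1 went from 222 and 212.2 to 135 and 145, and fas2 from 225 and 226 to 150.3 and 161. The desaturase gene ole1 fell from 376 and 419 to 210 and 232 (log2 fold change -0.84, SE 0.10, adjusted p = 0.0063). The genes that activate fatty acids, lcf1 and lcf2, fell from 232 and 197 to 124 and 123 and from 87.3 and 79.7 to 38.3 and 43.5. Those of the triacylglycerol lipases, ptl1 and ptl2, fell from 107 and 85.7 to 56.3 and 59.2 and from 183 and 164 to 87.5 and 104. The methyltransferase gene cho1 of phosphatidylcholine synthesis fell from 297 and 334 to 174 and 217, where red1Δ had 289.8 and 320.4, and the ceramide synthase gene lac1 from 266 and 294 to 205 and 206. psd3, a phosphatidylserine decarboxylase gene, was the 1 that rose, from 20.8 and 22.8 to 30.6 and 28.6. The biotin synthase gene bio2, for the cofactor of acetyl-CoA carboxylase, was picked after its values were seen and fell from 888 and 629 to 347 and 352. The biotin transporter gene vht1 had 734 and 382 in WT and 197 and 145 in mug174Δ but did not pass the test (adjusted p = 0.080). Of these 12 called genes, 6, 8, 4 and 9 stayed past the threshold with WT replicates 1 and 2 and mug174Δ replicates 1 and 2 left out in turn, and fas2 and lac1 did not pass it without scaling.

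The lowered lipid genes were inspected for GTGGGAA, the element bound by CSL factors such as Cbf11, which is known to control lipid genes of fission yeast. The motif was chosen after the list had been seen. It was searched on both strands from 250 bases before to 50 bases after each annotated gene start in the RefSeq genome ASM294v3. It was present in 86 of 4710 such windows (1.83%) and in 5 of the 22 of the lipid list (22.7%), which were cut6, fas1, fas2, lcf2 and ptl1, all of them lowered. The stretches around it are shown to give the place of the motif, the 7 bases these 5 genes have in common with vht1, which did not pass the test. From outside the list, vht1 and bio2 were looked up, and for the lowered bio2 no stretch with the motif was found. Each has 57 bases, 5′ to 3′ on the strand of the gene, with the motif or its reverse complement in capitals.
cut6, chr1:1253556-1253612, minus strand: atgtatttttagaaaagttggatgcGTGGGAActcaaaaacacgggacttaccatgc
fas1, chr1:3907061-3907117, minus strand: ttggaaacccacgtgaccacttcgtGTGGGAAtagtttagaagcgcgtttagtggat
fas2, chr1:2572619-2572675, minus strand: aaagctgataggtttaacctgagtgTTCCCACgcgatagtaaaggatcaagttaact
lcf2, chr2:2894932-2894988, minus strand: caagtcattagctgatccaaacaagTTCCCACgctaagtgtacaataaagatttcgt
ptl1, chr3:1765265-1765321, minus strand: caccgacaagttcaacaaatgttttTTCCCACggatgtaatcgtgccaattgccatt
vht1, chr1:4961119-4961175, minus strand: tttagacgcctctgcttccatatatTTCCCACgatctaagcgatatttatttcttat

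In the 5 lipid genes the motif began between 145 and 19 bases before the annotated gene start. Over all 86 genes with the motif, 17 fell and 9 rose and the median log2 fold change was -0.06. The lowered share was 19.8%, beside 11.5% over all features. The 17 include the 5 lipid genes on whose list the motif was chosen, so this share is no separate support. Of all lowered coding genes with a window 2.82% held the motif and of the raised ones 1.78%, beside 1.83% over all windows. None of the 23 windows of the ergosterol list held it. Of these 23 tested sterol genes 7 fell and 1 rose, beside 11.5% each way over all features. Their median log2 fold change was -0.09, and 0.09 without scaling. The C-22 sterol desaturase gene erg5 fell from 629 and 676 to 318 and 346 (log2 fold change -0.98, SE 0.09, adjusted p = 0.0044), and hcs1, the HMG-CoA synthase gene early in the pathway, from 176 and 184 to 109.6 and 109. The paired C-5 sterol desaturase genes went in opposite directions. erg32 rose from 62.9 and 63.9 to 105 and 101, and erg31 fell from 219.9 and 341 to 158 and 215.0. erg31 did not pass the test without scaling (log2 fold change -0.39, adjusted p = 0.052) or without the replicate block (adjusted p = 0.13). Of these 4 genes, 4, 2, 2 and 3 stayed past the threshold with WT replicates 1 and 2 and mug174Δ replicates 1 and 2 left out in turn.

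**Figure D3:**
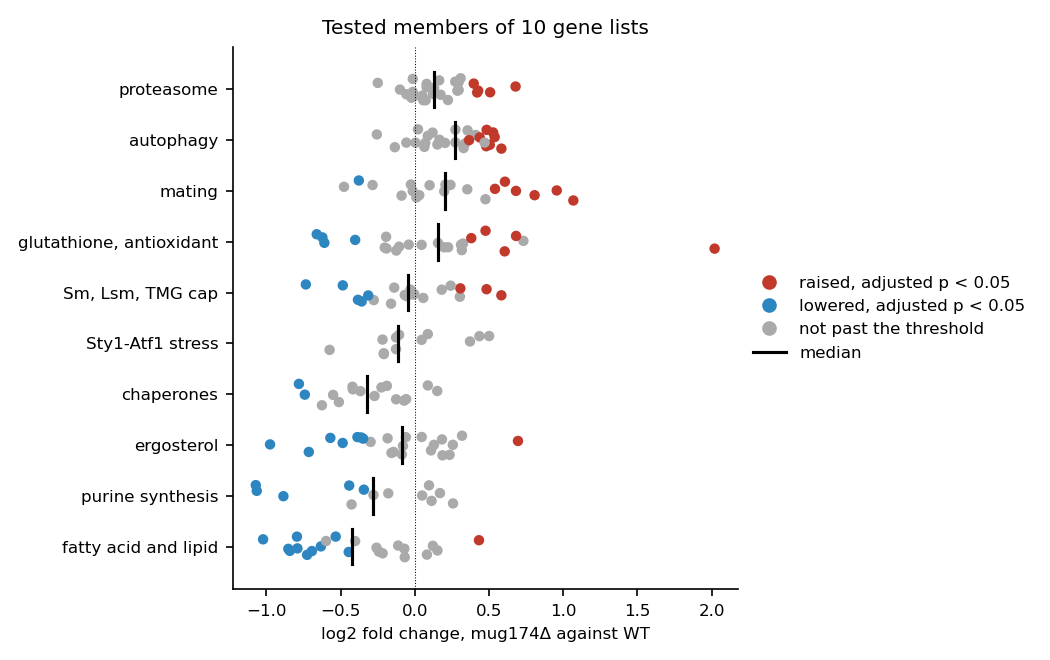
Log2 fold change of mug174Δ against WT (x axis) for every tested member of 10 gene lists (y axis), 1 point per gene, red where raised and blue where lowered at an adjusted p under 0.05, with a bar at the median. The medians run from 0.27 for autophagy to -0.42 for fatty acids and lipids, and gst2 lies at 2.02.

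Some genes that make or use one-carbon units, put together after their values were seen, were lowered. Serine hydroxymethyltransferase moves a carbon from serine to folate. Its gene shm1 had 1887 and 1952 in WT, 678 and 728 in mug174Δ, with 1299 and 1105 in red1Δ (log2 fold change -1.45, SE 0.15, adjusted p = 0.0051). The second serine hydroxymethyltransferase gene, shm2, fell from 155 and 159 to 78.5 and 81.8, and gcv2, for a subunit of the glycine cleavage system, from 123 and 128 to 61.9 and 61.6. sam1, the S-adenosylmethionine synthetase gene, fell from 2036 and 2224 to 909 and 1210, and hom3, the aspartate kinase gene at the head of methionine and threonine synthesis, from 416 and 401 to 148 and 135. Purine synthesis, which takes up one-carbon units from folate, was a list of its own, in which 5 of 13 tested genes fell (38.5%, beside 11.5% over all features), none rose and 8 did not pass the test (median log2 fold change -0.28, or -0.10 without scaling). ade2 fell from 499 and 472 to 230.3 and 231, ade4, the first enzyme of the route, from 449 and 459.8 to 212.3 and 221, and ade1 from 299 and 302 to 163 and 162. ade3 fell from 160.2 and 149 to 118 and 109.5, and gua2, the GMP synthesis gene, from 505 and 461 to 409.7 and 353, with gua2 not past the test without scaling or without the replicate block. Of these 10 genes, 7, 7, 6 and 7 stayed past the threshold with WT replicates 1 and 2 and mug174Δ replicates 1 and 2 left out in turn.

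In the nitrogen list 2 of 15 tested genes fell (13.3%, beside 11.5% over all features), 1 rose (aap1, given above) and 9 of the 15 log2 fold changes were negative (median -0.60). The lowered genes belong to ammonium assimilation. The glutamine synthetase gene gln1 fell from 183 and 253 to 101 and 115 and the glutamate dehydrogenase gene gdh1 from 1052 and 1224 to 569 and 599. Of 6 tested genes of pyrimidine synthesis and uptake, 2 fell, ura6 from 394 and 480 to 286 and 268 and ura2 from 106 and 99.6 to 74.5 and 78.3. gdh1 and ura2 were not past the test without scaling. With WT replicates 1 and 2 and mug174Δ replicates 1 and 2 left out in turn, 2, 1, 1 and 2 of the 4 stayed past the threshold.

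The uracil-responsive genes urg1, urg2 and urg3 lie next to each other on chromosome I and are known in fission yeast to be induced by uracil in the medium. Their levels differed strongly between replicates of a strain. urg1, a GTP cyclohydrolase gene, had 294 and 2265 in WT, 142 and 247 in mug174Δ, with 120.0 and 1000.1 in red1Δ. urg2, a uracil phosphoribosyltransferase gene, had 754 and 3606 in WT, 316 and 489 in mug174Δ, with 299 and 1918 in red1Δ. In both genes, replicate 2 was higher than replicate 1 in every strain, and both mug174Δ libraries lay below both WT libraries. urg3 had 265 and 759 in WT and 147 and 171 in mug174Δ, and uck2, a further uracil phosphoribosyltransferase gene, 150.5 and 709 against 80.2 and 104. put1, the proline dehydrogenase gene, had 404 and 775 against 163 and 233. Within replicate 1 the log2 difference of urg1 was -1.05 and within replicate 2 it was -3.19, so its size rests mostly on WT replicate 2. With the replicate number as a block all 5 fell, with adjusted p between 0.0072 for put1 and 0.041 for urg1, and without the block none of them passed the test. urg1 did not pass it without scaling either (adjusted p = 0.054). A steadier member of the same chemistry, the uracil phosphoribosyltransferase gene SPAC1B3.01c, fell from 245 and 288 to 119.9 and 123 with both fits (adjusted p = 0.0045 with the block). Of these 6, 3 stayed past the threshold without WT replicate 2, and all 6 without any other WT or mug174Δ library.

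**Figure D4:**
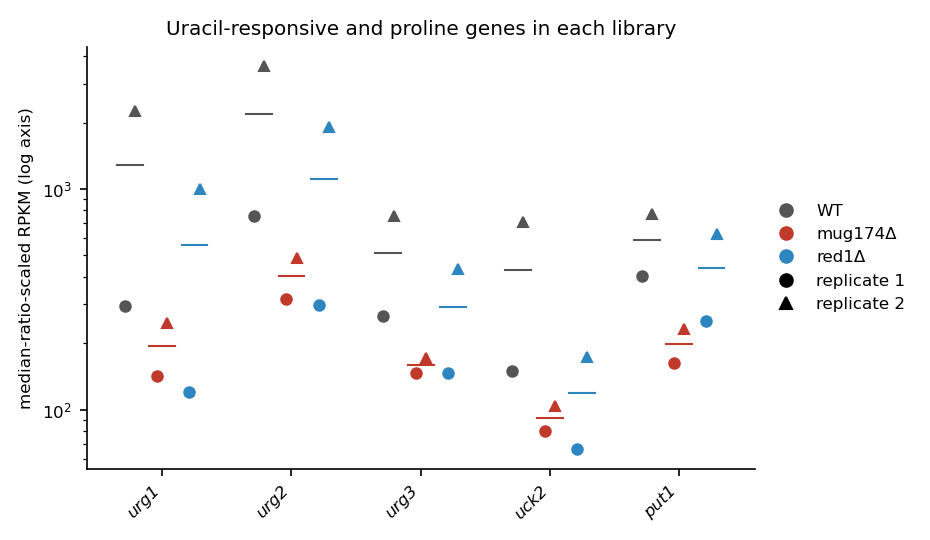
Scaled RPKM (y axis, log scale) of the genes urg1, urg2, urg3, uck2 and put1 in the 6 libraries, with circles for replicate 1, triangles for replicate 2 and a bar at the strain mean. Replicate 2 lies above replicate 1 in each strain, and both mug174Δ libraries lie below both WT libraries.

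Some genes of sugar and organic acid metabolism changed. Of 16 tested genes for hexose uptake and glucose-repressed functions 3 fell and 1 rose, beside 11.5% each way over all features. The main hexose transporter gene ght5 had 232 and 302 in WT, 114 and 129 in mug174Δ, with 198 and 369.9 in red1Δ (log2 fold change -1.13, SE 0.17, adjusted p = 0.012), with 37.4% of its 50-base words found elsewhere. The malate permease gene mae1 fell from 463 and 567 to 253 and 279 and the malic enzyme gene mae2 from 1804 and 1869 to 874 and 1233. agl1, an alpha-glucosidase gene, rose from 7.87 and 10.2 to 15.6 and 16.5. In the pentose phosphate pathway, which supplies NADPH, gnd1, the 6-phosphogluconate dehydrogenase gene, fell from 1666 and 1644 to 663 and 716 (log2 fold change -1.26, SE 0.12, adjusted p = 0.0045), and gcd1, annotated as a glucose-6-phosphate 1-dehydrogenase gene, from 43.9 and 46.3 to 19.4 and 20.9. Both were picked after their values were seen. Glycolysis genes had a median log2 fold change of 0.54 with 10 of 14 values positive, and 0.71 with 12 positive without scaling. Only 2 of the 14 passed the test. tdh1 had 13009 and 13162 in WT and 24066 and 24482 in mug174Δ, yet 18014 and 12182 in red1Δ. Its SE of 0.55, which the spread of the red1Δ libraries enters, left its adjusted p at 0.28. Of the 6 called genes from ght5 to gcd1, 4, 4, 3 and 5 stayed past the threshold with WT replicates 1 and 2 and mug174Δ replicates 1 and 2 left out in turn.

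In the respiratory chain 3 of 28 tested nuclear genes rose and 1 fell, beside 11.5% each way over all features. cox8 rose from 60.9 and 52.5 to 114 and 86.1, atp14 from 417 and 430.3 to 662 and 644 and cox4 from 349.9 and 362 to 489 and 519, whereas red1Δ had 389.7 and 408 for atp14 and 306 and 334 for cox4. qcr8 fell from 644 and 727 to 469 and 513 but not without scaling. coa5, an assembly factor of cytochrome c oxidase outside the list, rose from 149.6 and 147 to 348 and 286. Each of the WT and mug174Δ libraries, when left out, left 2 of these 5 past the threshold. Of 55 tested genes for mitochondrial ribosomal proteins 2 rose and 4 fell (median log2 fold change 0.05), and none of the 7 tested features of the mitochondrial genome passed the test. Of 35 translation factor genes 3 fell (8.57%) and none rose. Their median log2 fold change was -0.31 with 32 of 35 values negative, and -0.14 with 25 negative without scaling.

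At the cell surface, the flocculin gene pfl7, for a cell wall adhesin, had 26.6 and 23.5 in WT, 5.33 and 2.55 in mug174Δ, with 1.43 and 2.36 in red1Δ (log2 fold change -2.60, SE 0.35, adjusted p = 0.0087). Of 12 tested flocculin and adhesion genes 4 fell and 1 rose, beside 11.5% each way over all features. Among them were pfl9, which fell from 8.99 and 7.26 to 3.64 and 3.13, and pfl3, which rose from 96.3 and 84.8 to 162 and 142. Of 24 tested cell wall genes 3 rose and 1 fell. gas1, a glucanosyltransferase gene, rose from 336 and 428 to 702 and 799 and chs1, a chitin synthase gene, from 11.6 and 9.99 to 21.8 and 20.7. pvg1, which adds pyruvate to wall galactomannan, fell from 123 and 109.6 to 64.3 and 66.9. Of these 6 genes, 5, 6, 6 and 5 stayed past the threshold with WT replicates 1 and 2 and mug174Δ replicates 1 and 2 left out in turn.

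The lists of cell cycle genes are given beside 11.5% raised and 11.5% lowered over all features. Of 19 tested mitotic genes 1 rose, the kinesin gene klp9 from 36.1 and 37.8 to 54.5 and 54.6, and 1 fell, the contractile ring gene cdc15 from 25.2 and 27.5 to 19.9 and 21.7. Of 16 tested genes of the G1/S transition 2 rose and 3 fell. suc22, a ribonucleotide reductase subunit gene, rose from 313 and 335 to 508 and 427, and rep1, for an activator of the G1/S factor, from 5.31 and 6.69 to 14.4 and 10.03, against 40.3 and 38.8 in red1Δ. The corepressor gene nrm1 fell from 121.7 and 114 to 91.2 and 87.8 and the kinase gene mik1 from 28.3 and 21.2 to 16.5 and 16.1. Of 9 tested histone genes 2 fell, hht3 from 1419 and 1364 to 916 and 901 and hhf1 from 2033 and 2289 to 1347 and 1437. Of these 8 genes, 5 (cdc15, nrm1, mik1, hht3 and hhf1) were not past the test without scaling, and 0, 2, 0 and 2 stayed past it with WT replicates 1 and 2 and mug174Δ replicates 1 and 2 left out in turn.

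Regulators with clear rises were picked after their values were seen. Calcium signalling contributed prz1, the transcription factor downstream of calcineurin, with 108 and 146 in WT, 202 and 327 in mug174Δ, with 124.7 and 132 in red1Δ, and ncs1, a neuronal calcium sensor homolog, with 168 and 219 in WT, 349 and 412 in mug174Δ, with 216 and 260.1 in red1Δ. Both were higher in mug174Δ than in WT and red1Δ libraries, with log2 fold changes against WT of 1.03 and 0.98 (adjusted p = 0.010 and 0.0041). pat1, the kinase that holds back meiosis, rose from 10.7 and 9.56 to 21.9 and 19.9, and had 14.9 and 16.7 in red1Δ. ecl1, named for the extension of chronological lifespan, rose from 47.6 and 76.8 to 146 and 175, and had 82.4 and 291 in red1Δ, but did not pass the test without the replicate block. Leaving out WT replicate 2 or mug174Δ replicate 1 kept 3 of the 4 past the threshold, and leaving out WT replicate 1 or mug174Δ replicate 2 kept all 4.

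Genes of the pathway in which coilin itself works changed in both directions. tgs1, which encodes the TMG synthase, had 73.6 and 78.9 in WT, 46.8 and 44.5 in mug174Δ, with 50.7 and 57.5 in red1Δ (log2 fold change -0.73, SE 0.09, adjusted p = 0.0079). These values are of RNA only, and the study reports from western blotting that Tgs1 protein did not change in mug174Δ. Among the 20 tested genes of Sm and Lsm proteins, SMN and the cap enzyme, 5 fell and 3 rose, beside 11.5% each way over all features. Their median log2 fold change was -0.04, and 0.13 without scaling. smb1, a subunit of the Sm ring around snRNAs, fell from 335 and 369.6 to 244 and 259. lsm6 and lsm8, subunits of the ring of U6 snRNA, rose from 118 and 135 to 191 and 188 and from 52.4 and 51.8 to 75.1 and 71.1. Of 57 tested splicing genes named prp, cwf, sap, saf or usp, 5 rose and 4 fell (median log2 fold change 0.02). Among 8 tested snRNAs and other stable structural RNAs 3 rose and 1 fell. The raised ones included ter1, the telomerase RNA, from 13.7 and 15.7 to 31.7 and 28.8, and mrp1, the RNA of RNase MRP, from 18.9 and 22.96 to 54.6 and 46.6. Levels of single spliceosomal snRNAs are not given here, and the study reports from RT-qPCR that U1, U2 and U5 did not change in mug174Δ. In the list of the nuclear exosome and its targeting complexes 1 of 24 tested genes rose, mmi1, which recognises meiotic transcripts for removal, from 41.2 and 49.0 to 61.6 and 65.6. Of these 7 genes, 3, 5, 3 and 4 stayed past the threshold with WT replicates 1 and 2 and mug174Δ replicates 1 and 2 left out in turn.

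Markers of other cell states were looked up, since cultures able to mate can hold zygotes and asci. Of 13 markers of zygotes and spores 11 were tested, 3 rose and none fell, beside 11.5% each way over all features. Their summed level was between 237 and 248 in WT, between 290.3 and 298 in mug174Δ, but 606 and 641 in red1Δ. The meiotic transcription factor gene mei4 had 6.46 and 7.76 in WT, 10.5 and 10.9 in mug174Δ, with 136 and 149 in red1Δ. mfr1, an activator of the anaphase complex in meiosis, rose from 29.3 and 22.3 to 53.3 and 54.1, and bgs2, the glucan synthase gene of the spore wall, from 15.6 and 14.1 to 23.4 and 21.0. The spore coat gene isp3 had 2.34 and 1.56 in WT and 2.64 and 0.883 in mug174Δ. Of 20 tested mating genes 6 rose and 1 fell (median log2 fold change 0.20). sxa2, the carboxypeptidase that destroys P-factor, rose from 20.3 and 23.4 to 44.2 and 48.3, its receptor gene mam2 from 32.7 and 32.2 to 60.4 and 54.1, and the M-factor gene mfm1 from 17.1 and 14.3 to 26.7 and 21.7. fus1, the formin gene of cell fusion, rose from 3.54 and 3.49 to 6.21 and 5.68. Of the other list members, map4, an adhesin gene of P cells, rose from 13.9 and 12.4 to 19.4 and 19.3, and mam4, the methyltransferase gene of M-factor, fell from 55.6 and 57.2 to 40.1 and 46.7. Neither passed the test when any WT or mug174Δ library was left out, and mam4 did not pass it without scaling. A further M-factor gene, mfm2, had 54.9 and 47.8 in WT and 34.0 and 39.5 in mug174Δ (adjusted p = 0.21), and the M-factor exporter gene mam1 had 16.1 and 17.3 against 16.6 and 17.5. The M mating-type gene mat1-Mc had 30.0 and 33.1 in WT and 47.1 and 58.5 in mug174Δ, but 100% of its words are shared with the silent copy, and the part of mating type in these values was not tested. Of the 7 called genes from mei4 to fus1, 3, 3, 3 and 5 stayed past the threshold with WT replicates 1 and 2 and mug174Δ replicates 1 and 2 left out in turn.

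The ends of chromosomes I and II showed both directions within short distances. Subtelomeres of fission yeast carry silent chromatin and families of repeated genes. Of 34 tested features within 25 kb of an end 10 rose and 13 fell. Between 25 and 50 kb 2 of 37 rose and 16 fell, and between 50 and 75 kb 3 of 37 rose and 15 fell, against 523 raised and 469 lowered of 4489 beyond 200 kb. The outermost features rose on 3 of the 4 ends. SPAC750.08c, at the right tip of chromosome I, had 1.52 and 1.15 in WT, 9.86 and 6.43 in mug174Δ, with 0.155 and 0.213 in red1Δ (log2 fold change 2.22, SE 0.28, adjusted p = 0.0079). The telomere-linked helicase genes tlh1 and tlh2, at the left end of chromosome I and the right end of chromosome II, had 7.33 and 8.23 and 7.49 and 7.95 in WT, 19.98 and 16.1 and 19.8 and 16.03 in mug174Δ, and 5.16 and 2.37 and 5.04 and 2.35 in red1Δ. The neighbours of these genes, SPAC212.09c and SPBCPT2R1.07c, rose from 1.37 and 1.47 to 9.86 and 6.18 and from 1.70 and 1.59 to 10.6 and 7.08. In red1Δ all of these were below WT. At least 97.4% of the words of tlh1, tlh2 and SPAC750.08c occur elsewhere, so the copies cannot be told apart and their values are not independent.

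Other features within the same distances fell. Of the ftm genes, a family of membrane proteins, ftm4 fell from 246 and 274 to 30.9 and 34.5, ftm1 from 189 and 202 to 27.3 and 31.4 and ftm5 from 319 and 349 to 49.4 and 57.4. Their log2 fold changes were -2.97, -2.72 and -2.64 (adjusted p between 0.0018 and 0.0023), with at least 94.7% of words shared. ftm2 and ftm3 fell too, with log2 fold changes of -1.66 and -1.49 (adjusted p = 0.0084 and 0.031). ftm6 and ftm7 had log2 fold changes of -0.37 and -0.52 and did not pass the test (adjusted p = 0.22 and 0.12). Raised features also lay farther inside. SPAC212.05c, 20.8 kb from the left end of chromosome I, rose from 0.957 and 0.343 to 11.97 and 3.93, and SPBCPT2R1.05c, 24.4 kb from the right end of chromosome II, had 0 and 1.49 in WT and 9.91 and 3.96 in mug174Δ (adjusted p = 0.0058 and 0.046). SPBCPT2R1.05c did not pass the test without WT replicate 1 or mug174Δ replicate 1. Unique genes fell there too. nhe1, the sodium-proton antiporter gene 52 kb from the left end of chromosome I, had 87.0 and 106 in WT, 33.4 and 36.4 in mug174Δ, with 53.0 and 67.4 in red1Δ. gdt1, near the right end of chromosome I, had 165 and 181 in WT, 44.2 and 56.7 in mug174Δ, with 32.4 and 77.5 in red1Δ. On an unplaced contig that the deposited table lists beside the chromosomes, all 5 of 5 tested genes fell. vba2 fell from 63.5 and 56.3 to 22.8 and 20.5, SPBC460.01c from 60.0 and 65.3 to 19.3 and 29.2, and SPBC460.02c from 695 and 634 to 261 and 219.8. These 5 stayed past the threshold whichever WT or mug174Δ library was left out. The other called genes near the chromosome ends, from SPAC750.08c to gdt1, number 10 when ftm2, ftm3, SPAC212.05c and SPBCPT2R1.05c are left aside. Of these 10, tlh1 and tlh2 did not pass the test without WT replicate 1, mug174Δ replicate 1 or mug174Δ replicate 2. SPAC212.09c and SPBCPT2R1.07c did not pass it without mug174Δ replicate 1.

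**Figure D5:**
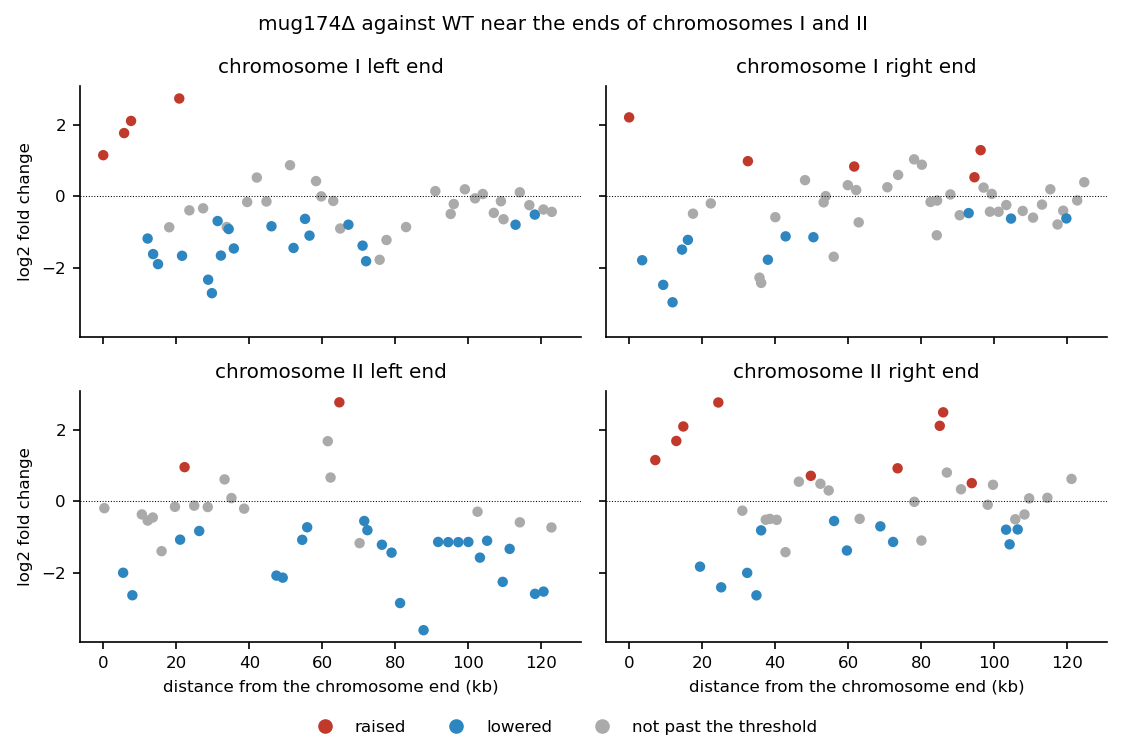
Log2 fold change of mug174Δ against WT (y axis) of every tested feature near an end of chromosomes I and II (x axis, distance from the end in kb), red where raised and blue where lowered at an adjusted p under 0.05. On chromosome I and at the right end of chromosome II the outermost features are raised and both directions occur farther inside. The left end of chromosome II has a run in which 13 of 15 features are lowered, some of them transporter genes that share their sequence.

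A further run of lowered features lay on the left arm of chromosome II, from SPNCRNA.1306 at 78958 to SPNCRNA.293 at 121643, a stretch picked after its values were seen. Of its 15 tested features 13 fell and none rose, with a median log2 fold change of -1.34, against 684 of 5949 over the whole table. It held coding and non-coding features alike. The cysteine transporter gene SPBPB10D8.01 had 59.9 and 54.0 in WT, 9.77 and 5.62 in mug174Δ, with 5.67 and 6.998 in red1Δ. The amino acid permease gene aat1 had 50.8 and 46.8, 23.1 and 15.6, and 11.7 and 7.79 in the same order of strains. The non-coding RNA SPNCRNA.291 fell from 25.5 and 21.5 to 8.87 and 6.32, SPNCRNA.293, beside pfl7, from 14.9 and 14.7 to 3.97 and 1.06, and SPNCRNA.1306 from 42.2 and 41.3 to 11.6 and 19.5. SPBPB10D8.04c, the first of 4 transporter genes in a row that share 100% of their words, fell from 600.3 and 465 to 284 and 202. All 4 are among the 13 lowered features. Their values are not independent, so the count and the median of the stretch give these copies more weight than 1 measurement. The features that did not pass were SPNCRNA.290 and SPNCRNA.292, both under 2 RPKM in WT. Of the 7 genes given for this stretch, pfl7 among them, 6 stayed past the threshold without WT replicate 2 and all 7 without any other WT or mug174Δ library.

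Among non-coding RNAs the largest rise was that of SPNCRNA.234 on chromosome I from 3786105 to 3787136, at the centromere, with 0.890 and 1.02 in WT, 30.8 and 44.1 in mug174Δ, with 1.90 and 1.47 in red1Δ (log2 fold change 4.68, SE 0.24, adjusted p = 0.0016). 94.8% of its words occur elsewhere. Small nucleolar RNAs guide the modification of ribosomal RNA. snR48, typed as a small nuclear RNA in the table, rose from 3.27 and 6.15 to 32.3 and 23.7, and had 34.0 and 16.3 in red1Δ. snR33 fell from 51.5 and 49.5 to 12.10 and 15.2, with 176 and 169.6 in red1Δ, and snR51b from 15.3 and 14.9 to 4.32 and 3.85, with 46.2 and 32.5 in red1Δ. The deletions of mug174 and red1 thus left these last RNAs on opposite sides of WT. SPNCRNA.1709 showed the same order, with 30.1 and 22.7 in WT, 10.4 and 6.50 in mug174Δ, with 51.3 and 66.0 in red1Δ, and SPNCRNA.1310 fell from 8.80 and 6.45 to 1.57 and 0.861. SPNCRNA.307 had 0 and 1.072 in WT and 5.90 and 6.13 in mug174Δ. All of these 7 RNAs stayed past the threshold whichever WT or mug174Δ library was left out.

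The remaining lists are given by their counts, beside 11.5% raised and 11.5% lowered over all features. Of 9 tested phosphate genes 3 rose and 1 fell, of 7 thiamine genes 1 rose and 2 fell (pho4 being in both lists), and of 19 drug and nutrient transporters 2 rose and 4 fell. The 13 copies of the retrotransposon Tf2 had log2 fold changes between 0.43 and 0.65 and none passed the test. This counts little as 13 values, since the copies share their sequence. Of these copies, Tf2-11 had 83.8 and 67.0 in WT, 122.8 and 109.7 in mug174Δ, with 102 and 350 in red1Δ. Its SE of 0.49 includes the spread of the red1Δ libraries.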

How the data were processed

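Whole-cell RNA of 3 strains was sequenced, with 2 libraries each. The authors deposited RPKM per feature, without scaling between libraries, and also log2 fold changes and p-values of their own comparisons (deposited log2 and p-value columns), which were not used. The labels give depletion of ribosomal RNA and directional libraries, whereas the methods of the study give poly(dT) enrichment. HISAT2, ASM294v2 and a removal of intronic reads are named in the methods, and FastQC 0.11.6, STAR 2.5.3a and StringTie 1.3.1c in the submitters' processing notes, so the aligner is uncertain. The sources used here name neither the counting program nor its strand setting, and overlapping genes are therefore uncertain. Of 7001 features, 6851 matched the RefSeq gene table of ASM294v3, and 5023 of 5111 matched coding regions had the same start and end. RPKM times length gave whole reads for 100% of values (tolerance 0.01 reads). No further per-sample column was left aside (0).

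Levels were divided by median ratio factors. limma 3.58.1 in R 4.3.3 was fitted to log2(RPKM + 0.5) of all 6 libraries with strain and replicate number as terms and eBayes with a trend (2 residual degrees of freedom), and p-values were 2-sided and Benjamini-Hochberg adjusted over all tested features. This scale understates the change of low features, and the spread is assumed equal across strains. Named genes were the 15 raised and 15 lowered protein-coding and the 6 raised and 6 lowered non-coding features with the largest change past an adjusted p of 0.05 and a mean of at least 5 RPKM, with strains not overlapping, the 5 with the smallest p each way, up to 4 members with the smallest p of each list, and mug174 with its neighbours and strain markers. Some of these are counted in the text but not named, and genes called picked after their values were seen, besides further members of lists, the genes of chromosome ends and some small RNAs, stand outside the rule. Members and lists were chosen with earlier results of these data known. Lists were counted without a test. The fit was tested on simulated data with known changes. Alternatives were pseudocounts of 0.1 and 1, no filter, a filter at 5 RPKM, no scaling, no replicate block, only the 4 WT and mug174Δ libraries, eBayes without a trend, voom weights on the recovered reads and each library left out. Depth limits counting error only.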

Additional observations from a re-analysis of the deposited data

How the results depend on the processing

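Against 685 raised and 684 lowered transcripts, 1 and 3 were called with no filter on low values, 1382 and 381 without scaling, 456 and 386 by eBayes without a trend, and 1053 and 1239 from the 4 WT and mug174Δ libraries with the replicate block, or 861 and 1043 from these 4 and no block. The fits on 4 libraries hold fewer samples and leave out the spread of red1Δ, and the causes of these differences in count were not tested. Leaving out 1 library gave 203 to 1106 raised and 214 to 1251 lowered transcripts, where a single remaining library is taken to vary as the other strains do, and 473 to 674 above and 483 to 529 below the fold threshold. Without scaling 844 features were above and 304 below it. Pseudocounts of 0.1 and 1 RPKM, a filter at 5 RPKM and voom weights moved no count by more than 1.5 times. Without the replicate block 581 rose and 601 fell, of which 566 and 573 were shared with the blocked fit. The labels do not say what a replicate number marks. Differences between replicates correlated at 0.19 between WT and mug174Δ, 0.22 between WT and red1Δ and 0.06 between mug174Δ and red1Δ, so the pairing rests on the number alone. No named gene that was past the threshold changed direction under any of these alternatives. Changes of features with few reads, under about 1 RPKM, are limited by depth.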
